A study of Mus musculus with 14 samples.

Results

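The genes described here are 6 matrix metalloproteinases, *Mmp2*, *Mmp3*, *Mmp9*, *Mmp10*, *Mmp13* and *Mmp14*, and 3 tissue inhibitors of metalloproteinases, *Timp1*, *Timp2* and *Timp3*. They were taken by name: every probe of the array, controls left out, whose gene name was one of these 9 belonged to the set. This gave 13 probes of 41174, and the 9 genes stood among 27962 gene names. More than 1 probe was present for *Timp1*, with 3, and for *Mmp9* and *Mmp14*, with 2 each. All 13 probes were among the 22172 tested, those that cleared the background on all arrays of some group. *Mmp10* and *Mmp13* had been picked by the study from these same arrays, for their response to TNFα, their need for p65 and their level in the K314/315R mutant, so their values here are no independent evidence of those properties.

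RNA was measured on 14 one-colour arrays from mouse embryonic fibroblasts (MEFs) of the *p65*(-/-) NIH 3T3 type, which lack the NF-κB subunit p65 (RelA). All cells had been infected with a lentivirus and selected with blasticidin, and pools of cells were used, not clones. The virus carried myc-tagged wild type p65, the KTR mutant (lysines K310, K314 and K315 changed to arginine), the K314/315R mutant (the last 2 of these lysines changed) or, for pTV, no p65. Every group had been starved of serum overnight. Wild type, KTR and K314/315R p65 cells and pTV cells received 30 ng/ml of mouse TNFα for 3 h, and a further wild type group received none (0 h). Each group was measured on 3 arrays, except K314/315R, with 2. The unstimulated state was measured in wild type cells alone, so the response to TNFα cannot be computed for pTV or for either mutant. p65 was introduced by virus in all lines, and its amount was not measured on these arrays.

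Matrix metalloproteinases are zinc-dependent enzymes that cut the proteins of the extracellular matrix. Most are secreted as inactive proenzymes, and their genes are switched on in fibroblasts by inflammatory cytokines such as TNFα, through NF-κB and through AP-1, the factor formed by Jun and Fos proteins. The TIMP proteins bind the active site of the enzymes and block it. *Mmp3* and *Mmp10* encode stromelysins, which cut proteoglycans, fibronectin and other metalloproteinases. *Mmp13* encodes a collagenase, *Mmp2* and *Mmp9* the gelatinases, and *Mmp14* a membrane-bound enzyme that activates pro-Mmp2 together with Timp2.

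Signals are given on the log2 scale after the array's 75th percentile was subtracted, so that a probe at that percentile has a value of 0. Levels of different genes are not compared, since each probe has its own brightness. The 75th percentile lay between 967 and 1442 intensity units per array, and the number of arrays limits the precision. Each of slides 1 to 3 carried 1 array from every group but K314/315R. The K314/315R arrays were on slide 4, for which the version of the image software was newer, so slide and cell line cannot be told apart in any comparison with K314/315R. Of 8 fibroblast markers, 7 were well above background on all arrays and the other, *Pdgfrb*, on 13. Of 5 macrophage markers none was so on all arrays and 3 on no array, but *Csf1r* was on 13 and *Cd68* on 6. All 4 endothelial markers were so on no array. Of 4 epithelial markers, 1 was so on all arrays (*Krt8*) and 2 on none. Of 5 osteoblast and chondrocyte markers, 2 were so on all arrays (*Agc1* and *Col2a1*) and 1 on none. As whole cultures were measured, fewer cells of a type and less RNA per cell cannot be told apart.

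*Mmp3*, *Mmp10* and *Mmp13* lie in 1 row of metalloproteinase genes on mouse chromosome 9. In RefSeq (GRCm38.p6) this row runs *Mmp13*, *Mmp12*, *Mmp1b*, *Mmp3*, *Mmp1a*, *Mmp10*, *Mmp8*, *Mmp27*, *Mmp20* and *Mmp7*. Of these 10 genes, 8 had a probe and 3 a tested probe, and the 3 were the members named here. *Mmp12* was well above background on 3 arrays and *Mmp1a* on 1, and *Mmp8*, *Mmp20* and *Mmp7* on none. The bases just before the RefSeq start sites of the 3 measured genes are shown because these genes moved together on the arrays. Each stretch covers positions −120 to −1 on the plus strand, 5′ to 3′, and capitals mark the AP-1 heptamer TGANTCA.
Mmp13, chr9:7272394-7272513: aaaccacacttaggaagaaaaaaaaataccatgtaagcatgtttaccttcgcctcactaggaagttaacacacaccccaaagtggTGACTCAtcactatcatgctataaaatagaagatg
Mmp3, chr9:7445702-7445821: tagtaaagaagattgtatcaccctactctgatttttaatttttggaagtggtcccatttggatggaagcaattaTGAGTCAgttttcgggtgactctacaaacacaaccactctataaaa
Mmp10, chr9:7502222-7502341: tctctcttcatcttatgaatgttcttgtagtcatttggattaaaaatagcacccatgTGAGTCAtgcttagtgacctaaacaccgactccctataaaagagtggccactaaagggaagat

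The AP-1 heptamer began at position −35 in *Mmp13*, −46 in *Mmp3* and −63 in *Mmp10*, and each promoter held the letters TATAAA of a TATA box between the heptamer and the start site. These letters began at −16 in *Mmp13*, −7 in *Mmp3* and −29 in *Mmp10*. Whether the RefSeq start sites are those used in these cells was not tested. RefSeq promoters of 300 bases, 250 before the start site and 50 after it, were at hand for 7 of the 9 members. Searched on both strands, TGANTCA was found in 3 of the 7, those printed above, and in 7.81% of all 32851 promoters. The TATA box was found in the same 3 and in 13.6% of all. The Ets motif AGGAAG, found in 35.4% of all, was present in *Mmp13*, *Mmp3*, *Mmp14*, *Timp1* and *Timp3*, and absent from these windows of *Mmp10* and *Timp2*. The κB consensus, found in 8.46% of all, matched in none of the 7 windows, which says only that these letters are not in this stretch.

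The plot of signals on each array gives the levels by group. *Mmp3* (probe A_51_P255699) had signals of 2.94, 2.32 and 2.33 in wild type at 3 h, 2.42, 1.92 and 2.56 in KTR, 3.31 and 3.36 in K314/315R, −3.94, −4.77 and −3.26 in pTV and 1.24, 1.13 and 0.84 in wild type at 0 h. The order of the means was K314/315R, wild type at 3 h, KTR, wild type at 0 h and pTV, and of the neighbours in that order only wild type at 3 h and KTR overlapped. The pTV arrays lay far under all others, and pTV replicate 2 was not well above background.
*Mmp10* (probe A_51_P120830) reached −1.10, −1.63 and −1.41 in wild type at 3 h, −1.27, −1.88 and −1.18 in KTR, −0.73 and −0.21 in K314/315R, −3.84, −4.64 and −3.56 in pTV and −2.71, −2.95 and −2.65 in wild type at 0 h. It had the same order of groups as *Mmp3* and the same single overlap between neighbours, and pTV replicate 2 was again not well above background.
*Mmp13* (probe A_51_P184484) reached −0.45, −0.78 and −0.92 in wild type at 3 h, −0.55, −0.74 and −0.14 in KTR, 0.29 and 0.72 in K314/315R and −1.81, −2.20 and −2.39 in wild type at 0 h. No pTV array was well above background for *Mmp13*, where the measured values were −6.82, −5.83 and −7.14. In these 3 genes every K314/315R array lay above every other array.

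**Figure D1:**
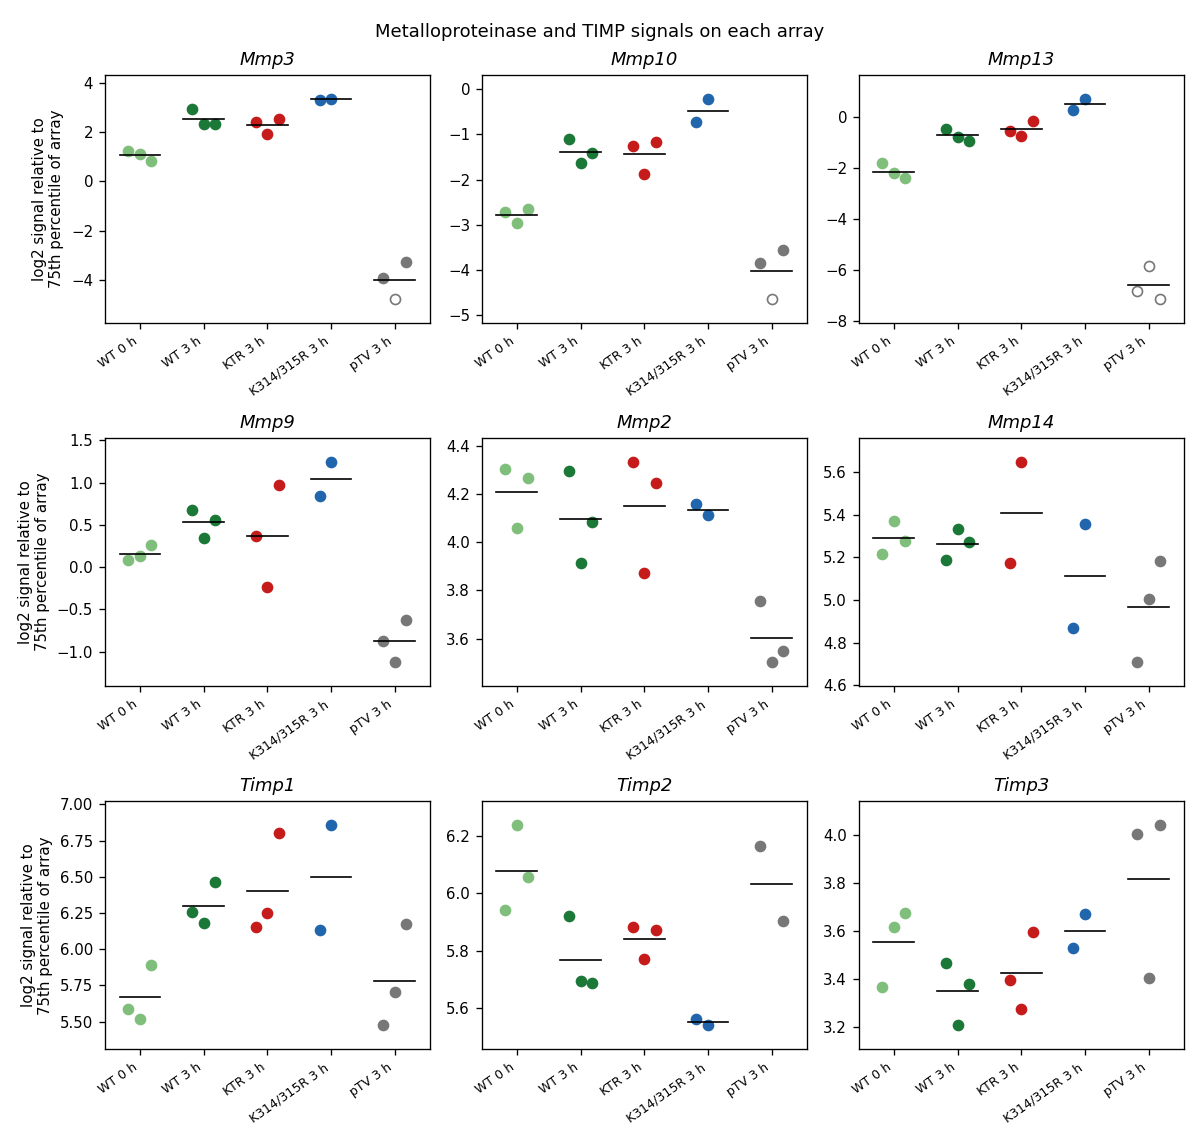
Each panel shows 1 gene (brightest probe), with the log2 signal minus the array's 75th percentile on the vertical axis and the 5 groups along the horizontal axis. Points are arrays, open points were not well above background, and lines are group means. In the top row the pTV arrays lie lowest and the 2 K314/315R arrays highest, while *Mmp2*, *Mmp14*, *Timp2* and *Timp3* span less than 1 log2 unit over all arrays.

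*Mmp9* (probe A_51_P401797) had a narrower spread, with 0.68, 0.35 and 0.56 in wild type at 3 h, 0.37, −0.23 and 0.97 in KTR, 0.84 and 1.24 in K314/315R, −0.88, −1.12 and −0.63 in pTV and 0.09, 0.13 and 0.26 in wild type at 0 h. All pTV arrays lay under all others, and the KTR arrays were spread over the range of wild type at both times. *Timp1*, the inhibitor with the widest range here, gave 6.25, 6.18 and 6.46 in wild type at 3 h on its brightest probe (A_52_P87713), 6.15, 6.25 and 6.80 in KTR, 6.14 and 6.86 in K314/315R, 5.47, 5.70 and 6.18 in pTV and 5.59, 5.52 and 5.89 in wild type at 0 h. Every array with p65 and TNFα except KTR replicate 1 and K314/315R replicate 1 was above all pTV and all 0 h arrays, wild type replicate 2 only just. The other 4 genes spanned narrow ranges. *Mmp2* (A_51_P341736) ranged over 0.83 log2 units across the 14 arrays, *Timp3* (A_51_P463765) over 0.83, *Mmp14* (A_51_P216303) over 0.94 and *Timp2* (A_52_P540219) over 0.70. For 1 KTR array of *Mmp14* and 1 pTV array of *Timp2* the spot had been flagged and had no value.

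The first comparison asks which members respond to TNFα in cells with wild type p65. TNFα raised the stromelysin genes *Mmp3* and *Mmp10* and the collagenase gene *Mmp13* by similar factors, between 2.62-fold and 2.76-fold. The gelatinase genes, *Mmp14* and the TIMPs were not called on their brightest probes, and no member was called lower. A gene was called where its brightest probe passed an adjusted p under 0.05 (limma, Benjamini-Hochberg over all tested probes) and a fold over 1.8 either way, or over 2 against pTV. By this rule 3 of 9 genes were called, where 1.55% of all tested probes were (1.12% higher and 0.424% lower). The median log2 difference of the 9 genes was 0.37, and that of all tested probes −0.04. Some markers of other cell types also lay apart between these groups. The summed log2 signal of 4 epithelial markers was −2.55 to −2.26 at 3 h and −2.02 to −1.99 at 0 h. That of 5 osteoblast and chondrocyte markers was 2.42 to 2.48 and 2.60 to 2.70. The macrophage sums overlapped (−2.96 to −2.82 and −3.03 to −2.76), as did the endothelial sums. The part of the markers that lay apart in the result was not tested.

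*Mmp3* rose by 1.46 on the log2 scale (SE 0.32, n = 3 and 3, limma adjusted p = 0.0211), which is 2.76-fold with a 95% confidence interval of 1.71 to 4.46. The log2 difference within slides 1, 2 and 3 was 1.70, 1.19 and 1.50. *Mmp10* gave 1.61, 1.32 and 1.24 within the slides and *Mmp13* 1.36, 1.42 and 1.48. The arrays at 3 h all lay above those at 0 h for these genes, and the times did not overlap, in either direction, at 30.4% of all tested probes. Their calls depended on single arrays and on the background correction, while the log2 differences stayed between 1.12 and 1.58 under every alternative that tested them. No member was called without wild type replicate 1 at 3 h or without replicate 2 at 0 h, *Mmp10* alone was called without replicate 2 at 3 h or replicate 3 at 0 h, and none was called with the normexp background correction, where the adjusted p was 0.551 for *Mmp10*, 0.594 for *Mmp13* and 0.491 for *Mmp3*. With all probes tested, *Mmp10* alone was called. *Mmp3* also fell out without replicate 1 at 0 h (adjusted p = 0.0548 in limma) and without replicate 3 at 3 h (0.0503).

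*Timp1*, which blocks most secreted metalloproteinases, had differences of 3 h over 0 h on its 3 probes of 0.63 (SE 0.23, limma adjusted p = 0.171), 0.87 (SE 0.19, adjusted p = 0.0199) and 0.83 (SE 0.22, adjusted p = 0.0542) on the log2 scale, in order of brightness. The second probe was therefore called, at 1.83-fold, just over the limit, and the brightest was not. Its signals were 4.98, 4.49 and 4.83 at 3 h and 4.02, 3.61 and 4.06 at 0 h. The arrays of the 2 times did not overlap on any of the 3 probes. That call was lost without wild type replicate 1 or 3 at 3 h, without replicate 2 at 0 h (adjusted p = 0.0857, 0.0778 and 0.0867 in limma), with normexp and with all probes tested. *Mmp9* was 1.29-fold as high at 3 h (log2 difference 0.37, SE 0.25, limma adjusted p = 0.516) and its second probe, printed 10 times on each array, 1.42-fold (adjusted p = 0.245). The SD of log2 signal over those 10 spots was 0.0399 to 0.163 per array. *Timp2* had a log2 difference of −0.31 (adjusted p = 0.164), *Timp3* of −0.20 (adjusted p = 0.623), *Mmp2* of −0.11 (adjusted p = 0.777) and *Mmp14* of −0.03 (adjusted p = 0.969). The 95% intervals of these folds reached from 0.681 to 0.955 for *Timp2* and from 0.762 to 1.27 for *Mmp14*.

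**Figure D2:**
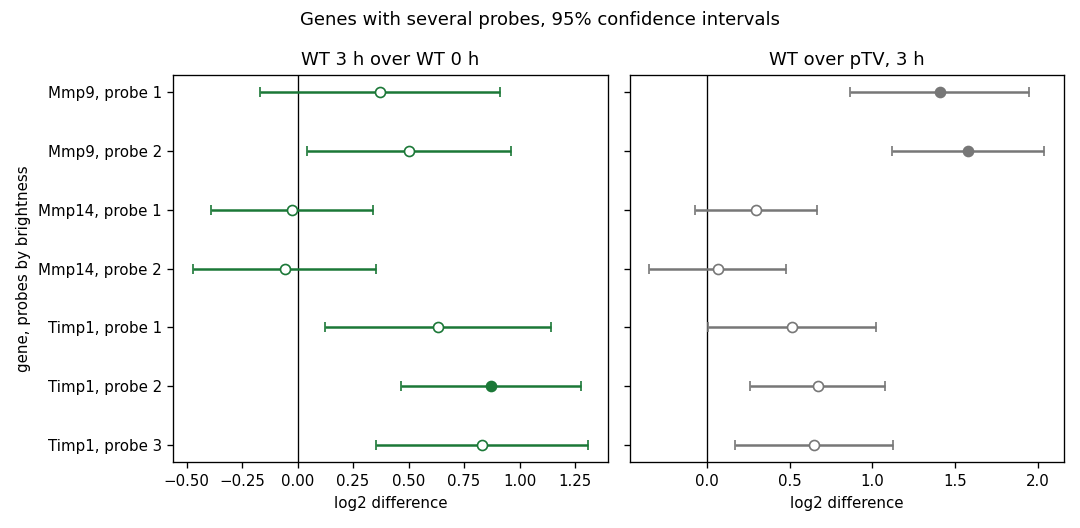
Log2 differences (horizontal axis) with 95% confidence intervals are shown for each probe of *Mmp9*, *Mmp14* and *Timp1*, numbered from the brightest, for wild type at 3 h over 0 h (left) and over pTV (right). Filled points were called, which on the left was 1 of the 3 *Timp1* probes and on the right each *Mmp9* probe.

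The next comparison sets wild type p65 cells against pTV cells, with TNFα in each, and asks which members need p65. *Mmp3*, *Mmp10*, *Mmp13* and *Mmp9* were higher with p65, and no member was called lower. *Mmp3* differed by 6.52 on the log2 scale (SE 0.32, n = 3 and 3, limma adjusted p = 6.1e-08), or 91.8-fold with an interval of 56.8 to 148. For *Mmp3* and *Mmp10* 2 of the 3 pTV arrays were well above background. *Mmp13* was at least 16.5-fold higher, since it was not measurable in pTV and the lowest measurable signal stands in its place. Its limma adjusted p of 8.4e-08 is that of the measured signals, and the bound itself was not tested. In all, 4 of 9 genes were called, where 5.04% of all tested probes were (3.59% higher and 1.46% lower). The wild type arrays at 3 h are also those of the TNFα comparison, so the values of these comparisons are not independent.

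*Mmp9* stood 2.65-fold above pTV in wild type cells (log2 difference 1.41, SE 0.25, limma adjusted p = 0.00191), and its second probe 2.98-fold (adjusted p = 0.00024). Within slides 1, 2 and 3 the *Mmp9* difference was 1.56, 1.47 and 1.19 on the log2 scale. *Mmp3* gave 6.88 and 5.59 within slides 1 and 3 and *Mmp10* 2.74 and 2.15, while on slide 2 the pTV array was not well above background for either gene. Under the normexp correction the log2 differences shrank to 4.52 for *Mmp3*, 2.57 for *Mmp13*, 1.36 for *Mmp10* and 1.04 for *Mmp9*, and *Mmp10* (adjusted p = 0.23 in limma) and *Mmp9* (0.0653) were no longer called, though the second *Mmp9* probe was. *Mmp2* was 1.41-fold higher with p65 (log2 difference 0.49, SE 0.14, adjusted p = 0.0321), but under the fold limit. All wild type arrays lay above all pTV arrays for it, and these groups did not overlap at 34.4% of all tested probes. *Timp1* differed by 0.52, 0.67 and 0.65 on its 3 probes (limma adjusted p = 0.182, 0.0302 and 0.0709), none past the fold limit. *Timp3* had a log2 difference of −0.46 (SE 0.16, adjusted p = 0.0849) and *Timp2* of −0.27 (adjusted p = 0.203). *Mmp14* had one of 0.30 (adjusted p = 0.296).

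The levels of *Mmp3*, *Mmp13*, *Mmp10* and *Mmp9* in wild type cells without TNFα lay above those in pTV cells with TNFα, although these groups differ in both p65 and treatment and were not tested against each other. The means were 1.07 ± 0.21 (SD, n = 3) against −3.99 ± 0.76 (SD, n = 3) for *Mmp3*, −2.77 ± 0.16 against −4.02 ± 0.56 for *Mmp10* and 0.16 ± 0.09 against −0.88 ± 0.25 for *Mmp9*. *Mmp13* stood at −2.13 ± 0.30 at 0 h and was not well above background in pTV. *Timp1* had no such gap, with 5.67 ± 0.20 at 0 h and 5.78 ± 0.36 in pTV.
Among markers of other cell types, the summed log2 signal of 4 epithelial markers was −1.70 to −1.39 in pTV and −2.55 to −2.26 in wild type at 3 h. Of these, *Krt8* was measured on all arrays, and *Cdh1* and *Tacstd1* on none. In KTR the epithelial sum was −2.21 to −2.01, under pTV and above wild type at 3 h. The sum of the 5 macrophage markers was −2.59 to −2.35 in pTV and −2.96 to −2.82 in wild type at 3 h. The part of these differences in the results against pTV was not tested.

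**Figure D3:**
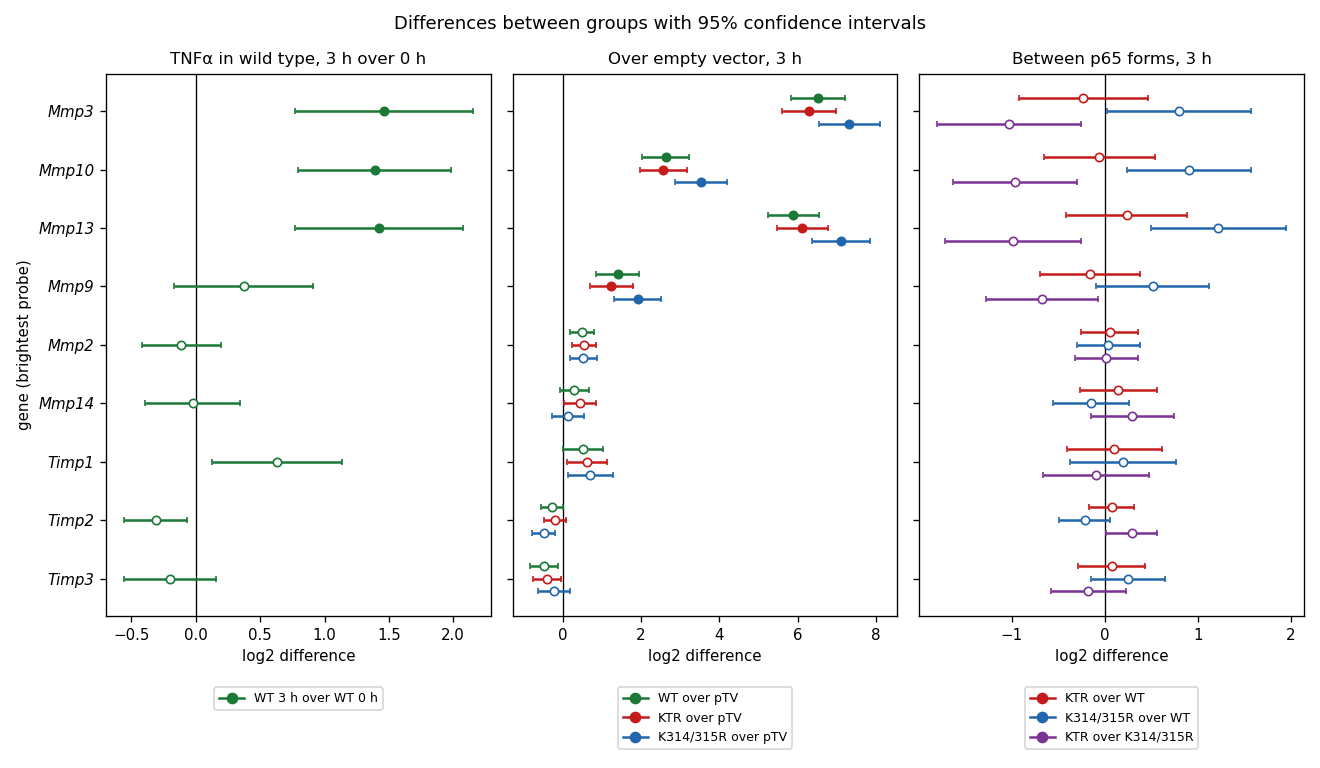
Log2 differences with 95% confidence intervals (horizontal axis) are given for the brightest probe of each gene, for TNFα in wild type cells (left), for each p65 form over pTV (middle) and between p65 forms (right). Filled points passed the adjusted p and the fold limit, which holds for 3 genes on the left, for 4 in the middle and for none on the right. The points of *Mmp13* over pTV rest on pTV signals that were not well above background.

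KTR and K314/315R cells, like wild type cells, were compared with pTV to ask whether the mutant forms of p65 also give these genes. The same 4 genes, *Mmp3*, *Mmp10*, *Mmp13* and *Mmp9*, were called higher over pTV with either mutant, and none lower. This was 4 of 9 genes where 4.68% of tested probes were called for KTR (3.32% higher and 1.36% lower), and where 8.86% were for K314/315R (4.18% higher and 4.68% lower). The 3 comparisons share the pTV arrays, so their likeness is in part built in.

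For *Mmp3* the difference over pTV was 6.29 on the log2 scale in KTR (SE 0.32, limma adjusted p = 9.6e-08), or 78.2-fold. In K314/315R it was 7.32 (SE 0.35, n = 2 and 3, limma adjusted p = 7.5e-08), or 160-fold. *Mmp10* was 5.96-fold higher in KTR (adjusted p = 4.3e-05) and 11.7-fold in K314/315R (adjusted p = 8.9e-06). *Mmp13* was at least 19.4-fold higher in KTR and at least 38.5-fold in K314/315R, again against the lowest measurable signal. These bounds, 4.28 and 5.27 on the log2 scale, hold for the main settings only. The lowest *Mmp13* differences among the alternatives were 2.55 in KTR and 3.56 in K314/315R. *Mmp9* was 2.37-fold higher in KTR (adjusted p = 0.00458 in limma) and 3.78-fold in K314/315R (adjusted p = 0.000414). The *Mmp9* call in KTR was lost without KTR replicate 3, where the log2 difference was 0.94 and under the fold limit, and with normexp or only the compared groups in the fit (adjusted p = 0.16 and 0.0608). With normexp *Mmp10* was no longer called in K314/315R (adjusted p = 0.0642) or in KTR. Among the alternatives the lowest log2 difference of *Mmp3* was 4.63 in KTR and 5.64 in K314/315R. That of *Mmp10* was 1.19 in KTR and 1.91 in K314/315R.
*Mmp2* was 1.46-fold as high in KTR and 1.45-fold in K314/315R as in pTV (adjusted p = 0.0196 and 0.0256), below the limit of 2. *Timp1* differed by 0.62 in KTR and 0.71 in K314/315R on its brightest probe (limma adjusted p = 0.101 and 0.0632). Without K314/315R replicate 1 the *Timp1* difference there on the brightest probe was 1.07, and without replicate 2 it was 0.35. Each rests on 1 K314/315R array. Its dimmest probe reached 0.94 in K314/315R (adjusted p = 0.0144), and with the replicate number as a block 1.06, past the fold limit. *Timp2* was the member that was lower with an adjusted p under 0.05, as 13.5% of tested probes were, by −0.48 on the log2 scale in K314/315R (SE 0.14, adjusted p = 0.0235, ratio 0.716), from 3 pTV arrays of which 2 had a value. In KTR the *Timp2* difference was −0.19 (adjusted p = 0.355).

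Cells with KTR and with wild type p65 were compared to ask whether the 3 lysines alter these genes. None of the 9 genes was called, where 0.167% of tested probes were (0.0271% higher and 0.140% lower), and none had a limma p under 0.05 before adjustment. The log2 differences of the 3 chromosome 9 genes were −0.23 for *Mmp3* (95% interval −0.92 to 0.46, adjusted p = 0.878), −0.06 for *Mmp10* (−0.65 to 0.54, adjusted p = 0.967) and 0.24 for *Mmp13* (−0.42 to 0.89, adjusted p = 0.866). *Mmp9* gave −0.16 (adjusted p = 0.893) and *Timp1* 0.10 (adjusted p = 0.931). These intervals leave room for changes of up to 1.85-fold higher for *Mmp13* and down to 0.527-fold for *Mmp3*. On slide 3, KTR lay above wild type for *Mmp3*, *Mmp10*, *Mmp13*, *Mmp9* and *Timp1* (by 0.23, 0.24, 0.78, 0.41 and 0.34). On slide 1 it lay below for each of the 5, between −0.52 and −0.10. On slide 2 it lay below for *Mmp3*, *Mmp10* and *Mmp9* (−0.40, −0.25 and −0.58) and just above for *Mmp13* and *Timp1* (0.03 and 0.07). KTR replicate 3, on slide 3, had the most flagged spots of all arrays (326) and the smallest share of spots well above background (49.9%). Their part in the result was not tested.

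**Figure D4:**
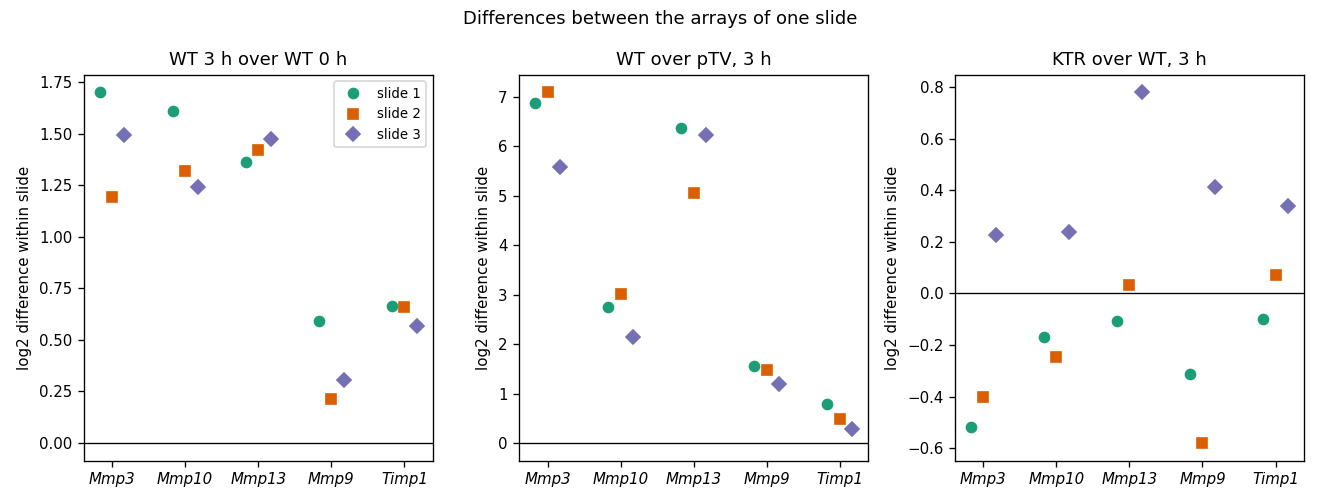
The log2 difference between 2 arrays of the same slide (vertical axis) is shown for 5 genes, for wild type at 3 h over 0 h, for wild type over pTV and for KTR over wild type. Each symbol is 1 slide, and all symbols lie above 0 in the left and middle panels, while in the right panel slides 1 and 3 lie on opposite sides of 0. The *Mmp13* values over pTV, and those of *Mmp3* and *Mmp10* on slide 2, rest on pTV signals that were not well above background.

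K314/315R cells gave the highest levels of *Mmp3*, *Mmp10* and *Mmp13*, but none of the 9 genes passed the test against wild type or against KTR. This was 0 of 9 where 1.20% of tested probes were called over wild type (0.167% higher and 1.03% lower), and 0 of 9 where 2.55% were called for KTR over K314/315R (2.06% higher and 0.492% lower). By limma without adjustment of p, 2 genes passed both limits over wild type, *Mmp10* and *Mmp13*, where 3.44% of tested probes did, and 3 between the mutants, *Mmp10*, *Mmp13* and *Mmp3*, where 5.15% did. Over wild type the log2 difference of *Mmp13* was 1.22 (SE 0.33, limma adjusted p = 0.0819) and that of *Mmp10* 0.91 (SE 0.30, adjusted p = 0.145). *Mmp3* was 1.74-fold as high in K314/315R as in wild type (log2 difference 0.80, SE 0.35, adjusted p = 0.269, 95% interval of the fold 1.02 to 2.98). *Mmp9* was 1.43-fold as high (adjusted p = 0.374), and its second probe 1.45-fold (adjusted p = 0.267). The K314/315R arrays lay outside the range of wild type at 3 h for 6 of 9 genes, as they did at 36.2% of all tested probes. *Timp2* stood at a ratio of 0.86 to wild type (adjusted p = 0.405).

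Between the mutants, the log2 difference of KTR over K314/315R was −1.03 for *Mmp3* (SE 0.35, limma adjusted p = 0.115), −0.97 for *Mmp10* (SE 0.30, adjusted p = 0.0894) and −0.99 for *Mmp13* (SE 0.33, adjusted p = 0.111). The arrays of the mutants did not overlap for these 3 genes or for *Timp2*, and did not at 31.2% of all tested probes. *Timp1* differed by −0.09 (adjusted p = 0.881) and *Mmp2* by 0.01 (adjusted p = 0.972). With the replicate number as a block, *Mmp10* was called in each of these comparisons, by 1.01 over wild type (adjusted p = 0.0395) and by −1.07 between the mutants (adjusted p = 0.0253 in limma), though for K314/315R the numbers were not shown to pair the arrays. Without pTV replicate 2, which changes only the shared estimate of the spread, *Mmp13* was called over wild type (adjusted p = 0.0362), and *Mmp10* (0.0476) and *Mmp13* (0.0427) between the mutants. Without KTR replicate 3, *Mmp9* was called between them (0.0391).
The summed log2 signal of 5 osteoblast and chondrocyte markers, a cell lineage that makes *Mmp13*, was 1.77 to 2.08 in K314/315R. It was higher in wild type at 3 h (2.42 to 2.48), in KTR (2.34 to 2.68) and in pTV (2.41 to 2.87). Of these markers, *Agc1* and *Col2a1* were measured on all arrays and *Bglap1* on none. The epithelial sum was −2.10 to −1.95 in K314/315R and −2.55 to −2.26 in wild type at 3 h. The part of these differences in the result was not tested.

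Of a list of 18 genes, the other metalloproteinases and *Timp4*, 7 were tested, and none was called with TNFα (median log2 difference −0.37, where that of all tested probes was −0.04). *Mmp19*, a secreted enzyme that cuts basement membrane proteins, was higher in wild type than in pTV by 1.24 on the log2 scale (SE 0.24, limma adjusted p = 0.0041), and by 1.37 in KTR and 1.59 in K314/315R (adjusted p = 0.00236 and 0.0013). *Mmp24*, which encodes a membrane-bound enzyme, was at least 2.36-fold higher with wild type p65 than without p65 (adjusted p = 0.012), where no pTV array was well above background. It was at least 2.71-fold lower in K314/315R than in wild type (adjusted p = 0.0485), with no K314/315R array well above background. These bounds rest on the same wild type arrays, which were widely spread, with a mean of −3.52 ± 1.14 (SD, n = 3). The adjusted p values for *Mmp24* are those of the measured signals, and the bounds themselves were not tested. *Mmp28* was the gene of this family that was higher in KTR than in wild type, by 1.48 (SE 0.23, adjusted p = 0.0189), with means of −2.56 ± 0.53 and −4.04 ± 0.21 (SD, n = 3 each). It was also higher in KTR than in K314/315R, by 1.86 (adjusted p = 0.00587), and than in pTV, by 1.77 (adjusted p = 0.000204). For *Mmp28* 2 of the 3 pTV arrays were well above background.

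Of 18 Adam and Adamts genes, which encode related proteases of the cell surface and the matrix, 15 were tested and 1 was called with TNFα, *Adamts9* (log2 difference 1.01, SE 0.16, adjusted p = 0.00313). The share called of all tested probes was 1.55% with TNFα. Over pTV it was 5.04% in wild type, 4.68% in KTR and 8.86% in K314/315R. Against pTV, wild type p65 had 2 higher, *Adamts4* (1.08) and *Adamts7* (1.06), which encode enzymes that cut cartilage matrix proteins, and 1 lower, *Adam19* (−1.02). In K314/315R over pTV, *Adamts4*, *Adamts7* and *Adamts5* were higher by 1.12, 1.33 and 1.07, and in KTR *Adam19* was lower by −1.01. *Adamts2*, a procollagen protease, was lower in KTR than in K314/315R by −0.89 (SE 0.17, adjusted p = 0.0167). The median log2 difference of the 15 with TNFα was 0.01.

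Genes that switch metalloproteinases on or hold them at the cell surface gave 3 calls with TNFα among 13 tested of 16. Of all tested probes, 1.55% were called with TNFα. *Plaur*, the urokinase receptor, rose by 0.93 (SE 0.12, limma adjusted p = 0.00072), and *Cd44*, a surface receptor for hyaluronan that binds Mmp9, by 0.97 (adjusted p = 0.000584). *Lcn2*, whose protein forms a complex with Mmp9, was higher over pTV by 3.95 in wild type, 3.76 in KTR and 3.86 in K314/315R. *Plaur* went the other way there, at −1.15 in wild type (adjusted p = 2.2e-05) and −1.16 in K314/315R. *Pcsk6*, a proprotein convertase, was lower by −1.26, −1.65 and −1.32 in wild type, KTR and K314/315R. For *Pcsk6* 2 of the 3 KTR arrays were well above background. *Thbs2*, a matrix protein that clears Mmp2 from the cell surface, was lower in wild type (−1.31) and KTR (−1.95) than in pTV, and higher in K314/315R than in wild type, by 0.97 (adjusted p = 0.0497 in limma). It was lower in KTR than in K314/315R by −1.60 (adjusted p = 0.00616). *Plau*, the gene of urokinase, was lower in K314/315R than in pTV by −1.20.

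The genes of AP-1 and Ets factors were listed because these factors are known for binding metalloproteinase promoters. With TNFα 3 of 13 tested were called, all higher and all of the AP-1 and ATF kind, where 1.12% of all tested probes were called higher. *Fos* rose by 1.47 (SE 0.21, limma adjusted p = 0.00191), *Fosl1* by 1.30 (adjusted p = 0.000134) and *Atf3* by 1.08 (adjusted p = 0.0201), and the median log2 difference of the 13 was 0.58. Over pTV the calls were mostly of the other sign. There 1.46% of all tested probes were called lower in wild type, 1.36% in KTR and 4.68% in K314/315R. *Jun* was lower by −1.22 in wild type (adjusted p = 2.5e-05), −1.06 in KTR and −1.17 in K314/315R, and *Etv5*, an Ets factor, by −1.15 in wild type. *Etv5* was not well above background on any array of the mutants, so it was at least 2.35-fold lower in KTR and at least 2.91-fold in K314/315R. In K314/315R *Ets2* was higher over pTV by 1.11 and *Fosb* lower by −1.75. None of the 13 was called between the p65 forms. The medians over pTV were −0.35 in wild type, −0.41 in KTR and −0.19 in K314/315R, where those of all tested probes were −0.03, 0.02 and −0.01.

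The probes whose signals over the 14 arrays were most like those of a member are given as a description, with Pearson's r over arrays that share groups and slides, and with no p. For *Mmp3* these were the *Steap4* probes (r = 0.994 for each) and *Ccl5* (0.991). For *Mmp13* they were *Steap4* (0.986), *Ptx3* (0.982) and *Lbp* (0.981). For *Mmp10* they were *Il13ra1* (0.987), *Stat5a* (0.978) and *Fmnl2* (0.978), and for *Mmp9* they were *Lgi2* (0.973), *Ifitm2* (0.973) and *Ifitm6* (0.971). *Timp1* was most like *Gnai3* (0.968), *Rap1b* (0.956) and *Snapc1* (0.955). Among the members, *Mmp3* and *Mmp13* had r = 0.974, *Mmp3* and *Mmp10* 0.93, *Mmp3* and *Mmp9* 0.919, *Mmp3* and *Timp1* 0.576 and *Mmp3* and *Timp3* −0.515.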

How the data were processed

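For each of the 14 arrays the authors deposited the Feature Extraction output, whose spot intensities were background-corrected by the software and not scaled between arrays (version 9.1.1.1 on slides 1 to 3 and 9.1.3.1 on slide 4, per the file headers). Their deposited normalized intensities served as an alternative. On each array 99.6% to 99.8% of these lay within 1% of the values above times a single factor. The study's own analysis used Rosetta Resolver, which was not repeated here.

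Spots flagged as non-uniform or as population outliers were removed, remaining spots were averaged per probe, and the log2 of the 75th percentile of each array was subtracted. All 14 arrays entered 1 fit with limma 3.58.1 in R 4.3.3 (data.table package, version 1.17.8, figures with matplotlib 3.10.9), with group means only and two-sided tests adjusted by Benjamini-Hochberg. A probe was tested if it cleared the background on all arrays of some group. The brightest tested probe stands for a gene. "At least N-fold" sets the bright group's mean against a floor for the dim group: per array, the dimmest signal of those well above background, or the dim probe's own where that is larger. Named were all 9 members, every called gene of 4 lists (other metalloproteinases and *Timp4*, Adam and Adamts genes, activators and surface regulators, AP-1 and Ets factors) except 1 that is not reported here and, for 5 members, the 3 probes of other named genes with the highest Pearson's r among 21589. The members and the lists were chosen with earlier results of these data known. On simulated arrays in which 200 of 21589 probes were shifted by 1.5 log2 units, limma found 185 for TNFα with 4 false calls and 172 for K314/315R over wild type with 3. That shift was larger than every member difference of K314/315R over wild type, the largest being 1.22 for *Mmp13*. These counts therefore do not tell how often such smaller differences would be found. Alternatives were quantile normalization, normexp, other filters on dim probes, the deposited table, blocks for replicate or slide, fits of only the compared groups, kept outlier spots, other thresholds, the second probe and each array left out.

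Deviations from the group means correlated across probes by 0.308 to 0.613 in the 18 pairs of arrays with the same replicate number on slides 1 to 3, and by −0.510 to 0.0954 in the 36 other pairs, so there the arrays are paired by number, and number and slide coincide. With K314/315R the 8 same-number pairs gave −0.101 to 0.411, which does not show a pairing. RNA had been isolated on different days. Sequences were RefSeq's.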

Additional observations from a re-analysis of the deposited data

How the results depend on the processing

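The number of called members moved by over 1.5 times, or from 0, in these cases. For TNFα (3 genes) it was 1 with all probes tested and 0 with the normexp background correction or with the test limited to probes that cleared the background on all 14 arrays. For wild type and for KTR over pTV (4 genes each) it was 2 with normexp, *Mmp13* and *Mmp3*, and 1 with that limit, *Mmp9*, as it was then for K314/315R over pTV. The limit removes *Mmp3*, *Mmp10* and *Mmp13* from the test. For K314/315R over wild type (0 genes) it was 1 with the replicate block and 2 by unadjusted p, and for KTR over K314/315R (0 genes) 1 and 3. Smaller shifts were to 3 genes for K314/315R over pTV with normexp and for KTR over pTV with only the compared groups in the fit, and to 4 for TNFα with the second probe. At any fold, an adjusted p under 0.05 held for 5 genes in wild type and in KTR over pTV and 6 in K314/315R over pTV. The matching share of all tested probes was not taken, apart from 13.5% lower in K314/315R over pTV. These any-fold counts can therefore not be set against the whole array. The replicate block left the other counts at 3 for TNFα, 4 for each form over pTV and 0 for KTR over wild type. Leaving out each array in turn gave 0 to 3 genes for TNFα, 4 for wild type over pTV, 3 to 4 for KTR over pTV and 0 for KTR over wild type. For K314/315R, fits that left 1 of its arrays are not counted. The others gave 4 genes for K314/315R over pTV, 0 to 1 over wild type and 0 to 2 between the mutants. The cause of these shifts was not tested.

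For the 73 log2 differences of member probes given or plotted here, the sign turned in 6 under settings other than leaving out an array, each a difference that was not called. With normexp, KTR over wild type was −0.015 for *Mmp13* and 0.11 for *Mmp3*, K314/315R over wild type was 0.11 for *Timp2*, and wild type over pTV was −0.047 for the second *Mmp14* probe. *Mmp2* was −0.0034 in K314/315R over wild type with quantile normalization and −0.065 in KTR over K314/315R in the deposited table. With each array left out in turn, the sign turned in 15 differences, also not called. For KTR over wild type their ranges were −0.19 to 0.16 for *Mmp10*, −0.46 to 0.14 for *Mmp9*, −0.039 to 0.19 for *Mmp2*, −0.091 to 0.38 for *Mmp14*, −0.096 to 0.23 for *Timp1* and −0.014 to 0.15 for *Timp3*. For K314/315R over wild type they were −0.053 to 0.14 for *Mmp2*, −0.39 to 0.093 for *Mmp14* and −0.16 to 0.56 for *Timp1*. Between the mutants *Mmp2* ranged from −0.077 to 0.15 and *Timp1* from −0.45 to 0.27, and *Mmp14* in K314/315R over pTV from −0.096 to 0.39. With TNFα *Mmp14* ranged from −0.061 to 0.016 and its second probe from −0.23 to 0.19, and over pTV in wild type that probe from −0.11 to 0.31.

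Each group had 2 or 3 arrays, which limits the precision. *Mmp13* and, on 1 array each, *Mmp3* and *Mmp10* were at the limit of detection in pTV.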
